A study of Homo sapiens with 4 samples.

Results

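The 46 genes described here encode proteins of the large (60S) subunit of the cytosolic ribosome. They were selected by symbol, as RPL followed by a number with or without an A, together with RPLP0, RPLP1 and RPLP2, from 36203 gene identifiers with a value in each library. Pseudogenes were left out, and no symbol occurred more than once. The series holds 4 libraries from a human breast cancer line grown in DMEM with serum, given as MDA-MB-231 in the sample labels and as MDA-MB-231Br, a derivative selected for growth in the brain, in the growth protocol. There are 2 libraries of input RNA, made with no antibody, and 2 of RNA from an immunoprecipitation (RIP) with a Santa Cruz Biotechnology antibody against YTHDF3, a cytoplasmic protein that binds N6-methyladenosine (m6A) in mRNA. All 4 come from the same line, with no other treatment given. They are called input 1, input 2, RIP 1 and RIP 2 in accession order, which pairs the libraries that share a title suffix of unstated meaning. No RIP with a control antibody is used here. The labels' extraction text names an antibody against m6A instead, which leaves the protocol uncertain. The labels name no separate cultures, and the p-values therefore reflect how far these libraries vary, a variation that may be technical. Of the markers chosen beforehand for a basal breast cancer line, VIM, KRT18, CD44 and EGFR were above 1 FPKM in both inputs, whereas KRT5 was listed at 0. ESR1 and PGR were below 1 FPKM, and ERBB2 stood at 9.07 and 5.77 FPKM. The libraries held 13905 to 16604 genes above 0. RIP 2 stood apart in that genes of chromosome 1 held 35.9% of its FPKM weighted by exon length, against 9.20% to 10.6% in the other libraries.

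The large subunit holds the peptidyl transferase centre, where peptide bonds form, and the tunnel through which the new protein leaves. Its proteins are short, basic and made in large amounts, and their mRNAs are among the most abundant in growing cells. These mRNAs typically start with a cytidine followed by a run of pyrimidines, the 5′ terminal oligopyrimidine (TOP) motif, through which LARP1 and the mTORC1 kinase control their translation. YTHDF proteins bind m6A mostly in long last exons and near stop codons, and YTHDF3 has been linked to the translation and decay of the mRNAs it binds.

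The RIP libraries held much less large subunit mRNA than the inputs. Values are FPKM, fragments per kilobase of gene scaled to library size, which are shares of a library and not molecules per cell. In such bulk values, fewer cells with an mRNA and less of it per cell cannot be told apart. RIP and input come from the same line, so a lower RIP value does not measure lower expression in the cells. The median of the 46 genes was 377 FPKM in input 1 and 426 FPKM in input 2, and 34.0 FPKM in RIP 1 and 19.2 FPKM in RIP 2. Together they made up 6.46% and 6.80% of the FPKM of protein-coding genes in the inputs, and 1.00% and 0.76% in RIP. Protein-coding genes as a whole held 46.1% and 46.3% of all FPKM in the inputs and 92.7% and 94.9% in RIP, and the part of this shift in the members' values was not tested. All 46 passed the filter of at least 1 FPKM in at least 2 libraries. In limma's moderated test on log2(FPKM + 1), fitted on the 12848 genes that passed this filter, 41 of the 46, or 89.1%, were lower in RIP at a Benjamini-Hochberg adjusted p under 0.05, and none was higher. Over all genes tested, 24.3% were lower and 15.4% were higher. At an unadjusted p under 0.05, 43 members were lower and 0 higher, against 29.9% of all genes tested that were lower. Changes are given as log2 fold changes ± their standard error. The median log2 fold change of the members was -3.74, against -0.10 for all genes tested. With either input left out no member passed. The members lower at an unadjusted p under 0.05 then numbered 35 (input 1 left out) and 37 (input 2 left out), against 17.9% and 17.6% of all genes. Without RIP 1 there were 43 members lower, and without RIP 2 there were 44, against 30.6% and 29.1% of all genes. In each of these settings a group has 1 library, which is assumed to vary like the pair in the other group. A member that was not called is not shown to be equal in RIP and input.

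**Figure D1:**
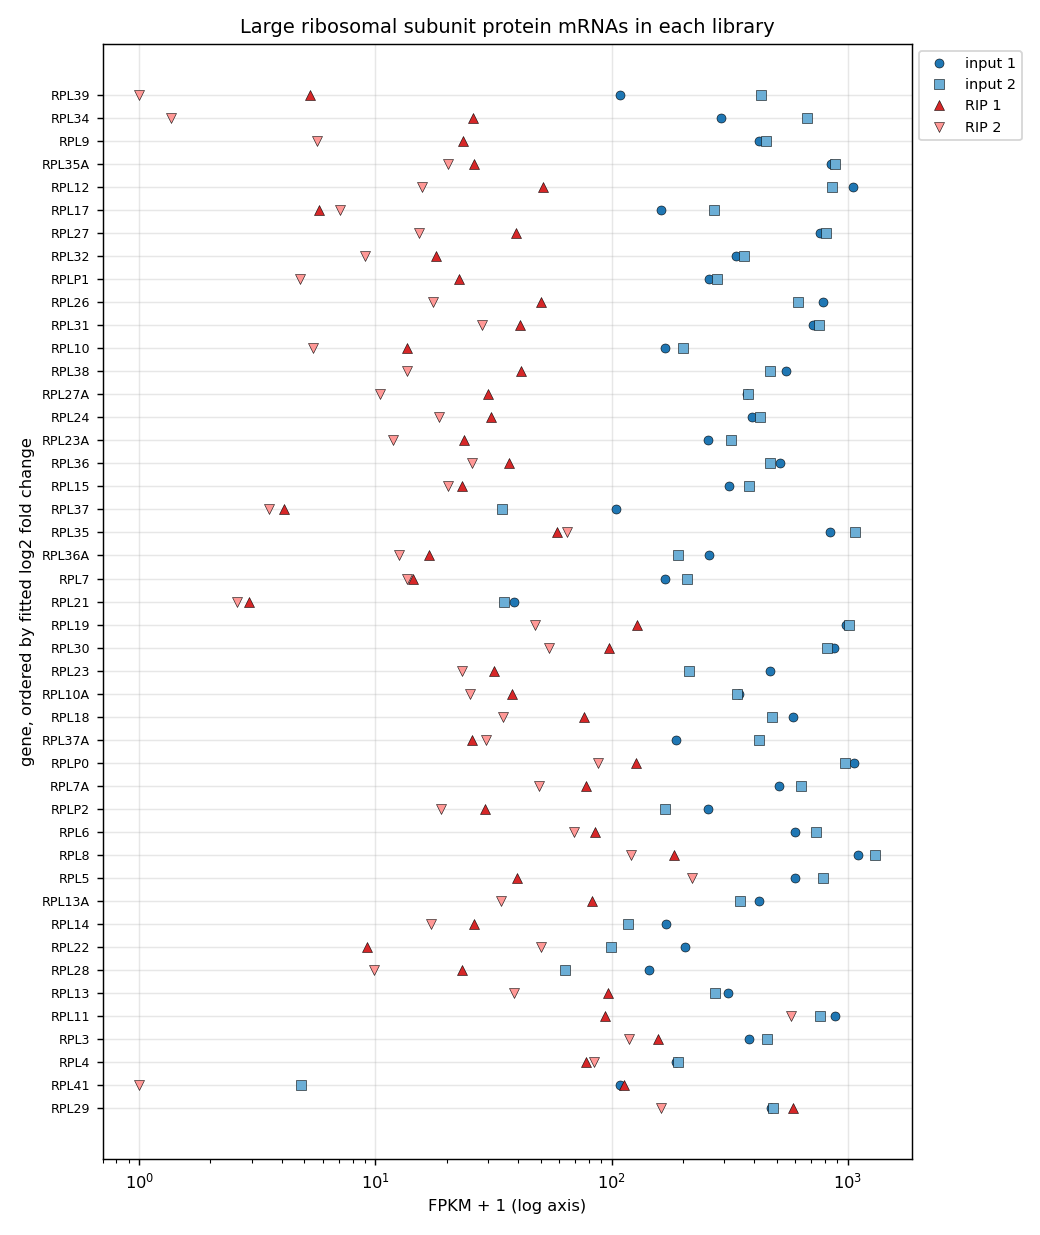
FPKM + 1 of each of 45 of the genes (vertical axis, ordered by fitted log2 fold change) on a log axis in the 4 libraries, with circles and squares for the inputs and triangles for RIP. In 43 of these both RIP points lie left of both input points, and RPL41 and RPL29 at the bottom are the exceptions.

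Both RIP values lay below both input values in 44 of the 46 genes, a pattern that 40.1% of all genes tested showed. Taken by title suffix, RIP 1 was below input 1 in 44 members and RIP 2 below input 2 in 46. The mean of the RIP libraries was under 10% of the input mean in 29 members and under 20% in 40. No share over all genes tested stands beside these counts by suffix and by percentage, so they describe the members only. The inputs ranked the members alike (Spearman rho 0.89 across the 46 genes), and the RIP libraries did so less closely (rho 0.72). Both are descriptions over genes of the same libraries.

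The start of the mRNA is a known common feature of these genes, so the genomic sequence around the start is shown for the 4 members with the lowest fold change and the 5 that were not called lower. Each window runs from 45 bases before the RefSeq start to 15 bases from it on (GRCh38.p14), written 5′ to 3′ on the gene's strand, with the longest run of C and T within 15 bases of the start in capitals.
RPL39: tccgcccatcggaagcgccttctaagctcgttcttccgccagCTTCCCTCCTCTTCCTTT
RPL34: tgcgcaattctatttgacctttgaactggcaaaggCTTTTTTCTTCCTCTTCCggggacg
RPL9: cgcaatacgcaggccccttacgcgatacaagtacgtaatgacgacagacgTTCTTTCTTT
RPL35A: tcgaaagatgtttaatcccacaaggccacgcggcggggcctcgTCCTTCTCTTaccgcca
RPL11: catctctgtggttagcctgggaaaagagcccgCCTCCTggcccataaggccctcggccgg
RPL3: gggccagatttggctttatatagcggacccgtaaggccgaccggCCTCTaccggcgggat
RPL4: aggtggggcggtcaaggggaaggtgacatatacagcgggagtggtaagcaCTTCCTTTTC
RPL41: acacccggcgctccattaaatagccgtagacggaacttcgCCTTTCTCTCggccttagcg
RPL29: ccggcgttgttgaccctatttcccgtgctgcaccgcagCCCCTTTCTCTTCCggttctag
The windows lie at chrX:119791616-119791675 (minus strand), chr4:108620531-108620590 (plus), chr4:39458908-39458967 (minus), chr3:197950145-197950204 (plus), chr1:23691734-23691793 (plus), chr22:39319609-39319668 (minus), chr15:66504841-66504900 (minus), chr12:56116588-56116647 (plus) and chr3:51995881-51995940 (minus), in the same order.

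A run of 8 or more letters, each C or T, was searched for in the 30 bases centred on the start. It was present on the sense strand in 28 of the 38 members with a RefSeq promoter entry, or 73.7%, against 13.4% of all 27305 promoters of the same length. On the other strand the run was in none of the members and in 10.8% of all promoters. The other 8 members have no entry. Of the 28 members with the run 25 were lower in RIP (median log2 fold change -3.71), as were 8 of the 10 without it (median -4.00). RPL29, RPL4 and RPL41 hold a run and were not called lower. A run counted here need not begin at the annotated start. In RPL9 and RPL4 it begins 5 bases after the RefSeq start, which is an A in both.

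All 4 genes of the P stalk were lower in RIP. This flexible arm, built on RPLP0 and RPL12, recruits and activates the GTPases of translation. RPLP0, which anchors the stalk to the rRNA, stood at 1060.0 and 971 FPKM in input and at 126 and 86.3 in RIP, a log2 change of -3.27 ± 0.58 (adjusted p = 0.0122). RPL12, which forms the base of the stalk with it, stood at 1048 and 861 FPKM in input and at 50.2 and 14.8 in RIP, a log2 change of -5.06 ± 0.69 (adjusted p = 0.00873). The acidic proteins RPLP1 and RPLP2 bind RPLP0 as dimers. RPLP1 went from 257 and 279 FPKM in input to 21.6 and 3.78 in RIP (log2 change -4.69 ± 0.77, adjusted p = 0.0106), with RIP 2 well below RIP 1. RPLP2 went from 255 and 168 FPKM in input to 28.1 and 17.9 in RIP (log2 change -3.15 ± 0.51, adjusted p = 0.0105). Both RIP values lay below both input values in all 4 genes, as in 40.1% of all genes tested.

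Of the proteins that line the tunnel or surround its exit, 7 of 8 had lower mRNA in RIP, with a median log2 fold change of -4.26. RPL39, a very short protein in the tunnel wall, had the lowest fitted fold change of the members, a rank that rests on a value of 0 in RIP 2 and on the pseudocount. RPL34 was lower without RIP 1 (-8.34 against -7.75 for RPL39) and without input 2 (-5.61 against -5.56). With a pseudocount of 0.1, RPL39 stood at -8.34, and summed with its pseudogenes at -4.35, against -5.81 for RPL34. It is encoded on the X chromosome (119786504 to 119791643, GRCh38) and stood at 107 and 427 FPKM in input and at 4.30 in RIP 1, while RIP 2 lists it at 0. Its log2 fold change was -6.55 ± 0.97 (adjusted p = 0.00914), and the inputs themselves differed by 1.98 on the log2 scale. RPL17, which lines the narrowest part of the tunnel, stood at 160 and 270 FPKM in input and at 4.76 and 6.07 in RIP (log2 change -5.03 ± 0.49, adjusted p = 0.00873). The readthrough gene RPL17-C18orf32, which shares 611 exonic bases with it, was listed at 0 and 0.18 FPKM in the inputs and at 7.45 and 2.14 FPKM in RIP, and its part in the value of RPL17 was not tested. RPL26, RPL31, RPL23A and RPL35, which surround the exit, had log2 fold changes of -4.56, -4.44, -4.09 and -3.94, and RPL19 had -3.67. The signal recognition particle and the nascent polypeptide-associated complex dock on this side, next to RPL23A and RPL35.

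RPL4 was the exception of that group. It reaches into the tunnel with a long loop opposite RPL17 and lies on chromosome 15 (66498015 to 66524532). It stood at 187 and 190 FPKM in input and at 76.7 and 82.8 in RIP, with little spread in either group. The groups did not overlap, and the mean in RIP was 42.4% of that in input. Its log2 fold change of -1.23 ± 0.48 missed the threshold over all genes (adjusted p = 0.0801). With the spread taken from the inputs alone, the adjusted p was 0.0405 without RIP 1 and 0.0248 without RIP 2.

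Of the pair of 5S particle genes, RPL5 was lower in RIP and RPL11 was not called, and the RIP libraries differed widely in both. RPL5 and RPL11 carry the 5S rRNA into the subunit and, outside the ribosome, bind MDM2 and so stabilise p53. Both genes lie on chromosome 1, where RIP 2 was raised: its median difference from RIP 1 on log2(FPKM + 1) was 1.57 over the 1358 genes tested there and was below 0 on every other autosome except chromosome 10 and on X. RPL5 (92831983 to 92841924) stood at 595 and 787 FPKM in input, at 38.7 in RIP 1 and at 217 in RIP 2, and was lower in RIP (log2 change -2.88 ± 0.88, adjusted p = 0.0421). That call was lost with a pseudocount of 0.1 (adjusted p = 0.0592), with no filter (0.0986) and after quantile normalization (0.137), and the fold change was -4.11 without RIP 2 and -1.65 without RIP 1. FAM69A, which shares 273 exonic bases with RPL5 on the opposite strand, stood at 10.3 and 5.45 FPKM in input and at 94.0 and 214 in RIP, and its part in the value of RPL5 was not tested. RPL11 (23691742 to 23696835) stood at 882 and 762 FPKM in input, at 92.3 in RIP 1 and at 576 in RIP 2. Its log2 fold change of -1.82 ± 0.94 did not pass (adjusted p = 0.158). Without RIP 2 it was -3.14 (adjusted p = 0.00668, with the spread taken from the inputs alone), and with RIP 2 adjusted for position it was -2.80 (adjusted p = 0.00715).

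RPL22 is the third member on chromosome 1 (6185020 to 6209389). It is an RNA-binding protein at the outer face of the subunit, known for binding a small RNA of Epstein-Barr virus and for recurrent mutations in cancers. It stood at 203 and 98.2 FPKM in input, at 8.24 in RIP 1 and at 49.1 in RIP 2, a log2 change of -2.72 ± 0.86 (adjusted p = 0.0468). The call was lost with a pseudocount of 0.1 (adjusted p = 0.0672), with no filter (0.104), after quantile normalization (0.0531), without the mean-variance trend (0.0517) and without RIP 1 (0.0653, with a fold change of -1.51). The 3 members on chromosome 1 were 2.63 (RPL11), 2.46 (RPL5) and 2.44 (RPL22) higher in RIP 2 than in RIP 1 on log2(FPKM + 1). No member lies on chromosome 10, the other chromosome where RIP 2 was raised. Of the 43 members elsewhere, 39 were lower in RIP 2 than in RIP 1, with a median difference of -0.66. The 4 exceptions, RPL4, RPL35, RPL37A and RPL17, differed by 0.29 or less. On genes outside chromosomes 1 and 10, with the test fitted anew, 40 of 43 members were lower in RIP, against 28.5% of the 10937 genes in that fit.

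**Figure D2:**
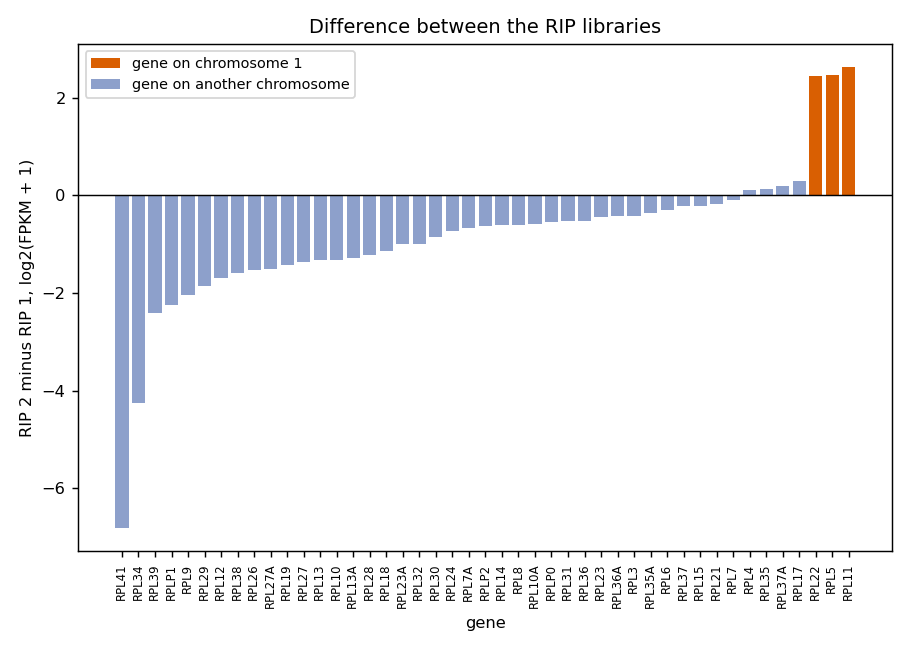
Difference of RIP 2 from RIP 1 on log2(FPKM + 1) for each of 45 of the genes, in rising order, with the genes on chromosome 1 in orange. RPL22, RPL5 and RPL11 are the 3 genes well above 0, and RPL41, RPL34 and RPL39 are the lowest.

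Of the proteins that join late or sit between the subunits, RPL10 and RPL24 had lower mRNA in RIP. RPL10 completes the peptidyl transferase region in the cytoplasm and is mutated in some T cell leukaemias. It stood at 168 and 200.5 FPKM in input and at 12.6 and 4.43 in RIP (log2 change -4.43 ± 0.58, adjusted p = 0.00873). RPL24, which forms a bridge to the small subunit, stood at 391 and 424 FPKM in input and at 29.97 and 17.6 in RIP (log2 change -4.09 ± 0.51, adjusted p = 0.00873). RPL41, a peptide of 25 residues held mostly by the small subunit, gave no stable value. It had 108 FPKM in input 1, 3.82 FPKM in input 2 and 112 FPKM in RIP 1, and was listed at 0 in RIP 2. The spread within each group exceeded the difference between them (log2 change -1.11 ± 2.32, adjusted p = 0.717), and its sign turned without RIP 2 (2.30) and without input 1 (1.14). Pseudogenes of RPL41 held 48.5% and 96.0% of the summed FPKM in the inputs, 47.3% in RIP 1 and all of it in RIP 2. The low values of RPL41 in input 2 and RIP 2 are therefore uncertain as levels of its mRNA. With the pseudogenes added in, the change was -0.65. How reads were split between RPL41 and its pseudogenes was not tested.

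Of the other 29 members, 27 were lower in RIP, with a median log2 fold change of -3.54. RPL34 had the lowest value among them (-6.21 ± 1.31, adjusted p = 0.017). Its inputs stood at 290.0 and 673 FPKM, RIP 1 at 25.0 FPKM and RIP 2 at 0.37 FPKM. The fold change of RPL34 was -4.09 without RIP 2, and the call was lost with no filter (adjusted p = 0.0533). RPL9, a protein near the factor-binding site, stood at 421 and 448 FPKM in input and at 22.4 and 4.67 in RIP (log2 change -5.24 ± 0.73, adjusted p = 0.00879). RPL35A, one of the genes mutated in Diamond-Blackfan anaemia, stood at 846 and 885 FPKM in input and at 25.1 and 19.2 in RIP. Both of its pairs were tight, and the log2 fold change was -5.24 ± 0.50 (adjusted p = 0.00873). The most abundant member in input was RPL8, which lies beside the peptidyl transferase centre, with 1107 and 1307 FPKM, followed by RPLP0 and by RPL19 with 978 and 1009 FPKM. RPL8 had 183 and 120 FPKM in RIP (log2 change -3.01 ± 0.61, adjusted p = 0.0159). Quantile normalization ended that call (adjusted p = 0.0756). RPL19 had 127 and 46.4 FPKM in RIP (adjusted p = 0.0128). Among the members called lower, RPL13 had the smallest change, from 312 and 274 FPKM in input to 95.4 and 37.6 in RIP (log2 change -2.27 ± 0.61, adjusted p = 0.0311). RPL13 missed the threshold with no filter (adjusted p = 0.0663) and after quantile normalization (0.0571), and RPL28 missed it with no filter (0.0568). The remaining members of this group lay between -5.00 (RPL27) and -2.66 (RPL28). In falling order of the decrease they included RPL27, RPL32, RPL38, RPL27A, RPL36, RPL15, RPL37, RPL36A, RPL7, RPL21, RPL30, RPL23, RPL10A, RPL18, RPL37A, RPL7A, RPL6, RPL8, RPL13A, RPL14, RPL22 and RPL28. Apart from RPL8 and RPL22, their adjusted p ranged from 0.00873 to 0.0238. In each of those listed both RIP values lay below both input values, as in 40.1% of all genes tested. Besides RPL39, RPL34, RPL22 and RPL41, the inputs themselves differed by 1 or more on the log2 scale in RPL37 (103 and 33.5 FPKM), RPL23 (465 and 211 FPKM), RPL37A (186 and 421 FPKM) and RPL28 (143 and 62.7 FPKM).

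RPL3 and RPL29 are the 2 members of this group that were not called lower. RPL3, on chromosome 22 (39312882 to 39320389), reaches with a loop to the peptidyl transferase centre. It stood at 383 and 454 FPKM in input and at 157 and 117 in RIP, with no overlap between the groups. Its log2 fold change of -1.61 ± 0.54 missed the threshold (adjusted p = 0.0552). RPL3 passed without the mean-variance trend (adjusted p = 0.0352) and with RIP 2 adjusted for position (0.0344). With the spread taken from the inputs alone, the adjusted p was 0.0156 without RIP 1 and 0.0233 without RIP 2. RPL29, on chromosome 3 (51993522 to 51995942), is a small basic protein that also binds heparin, and mice without it live. It stood at 470 and 484 FPKM in input, at 584 in RIP 1 and at 161 in RIP 2. RIP 1 was above both inputs and RIP 2 was below both, so the groups overlapped. The log2 fold change of RPL29 was -0.64 ± 0.77 (adjusted p = 0.526), and its sign turned after quantile normalization (0.72) and without RIP 2 (0.29), while without RIP 1 it was -1.56. The adjusted p of 0.022 in that setting rests on the spread of the inputs and leaves out that between the RIP libraries. By mean FPKM, RPL29 ranked 19 of 46 in input and was the highest in RIP, followed by RPL11, RPL8 and RPL3. The RIP libraries did not share that order. In RIP 2, RPL11 (576 FPKM) and RPL5 (217 FPKM) stood above RPL29. In RIP 1, RPL11 (92.3 FPKM) stood below RPL8 (183 FPKM) and RPL3 (157 FPKM).

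**Figure D3:**
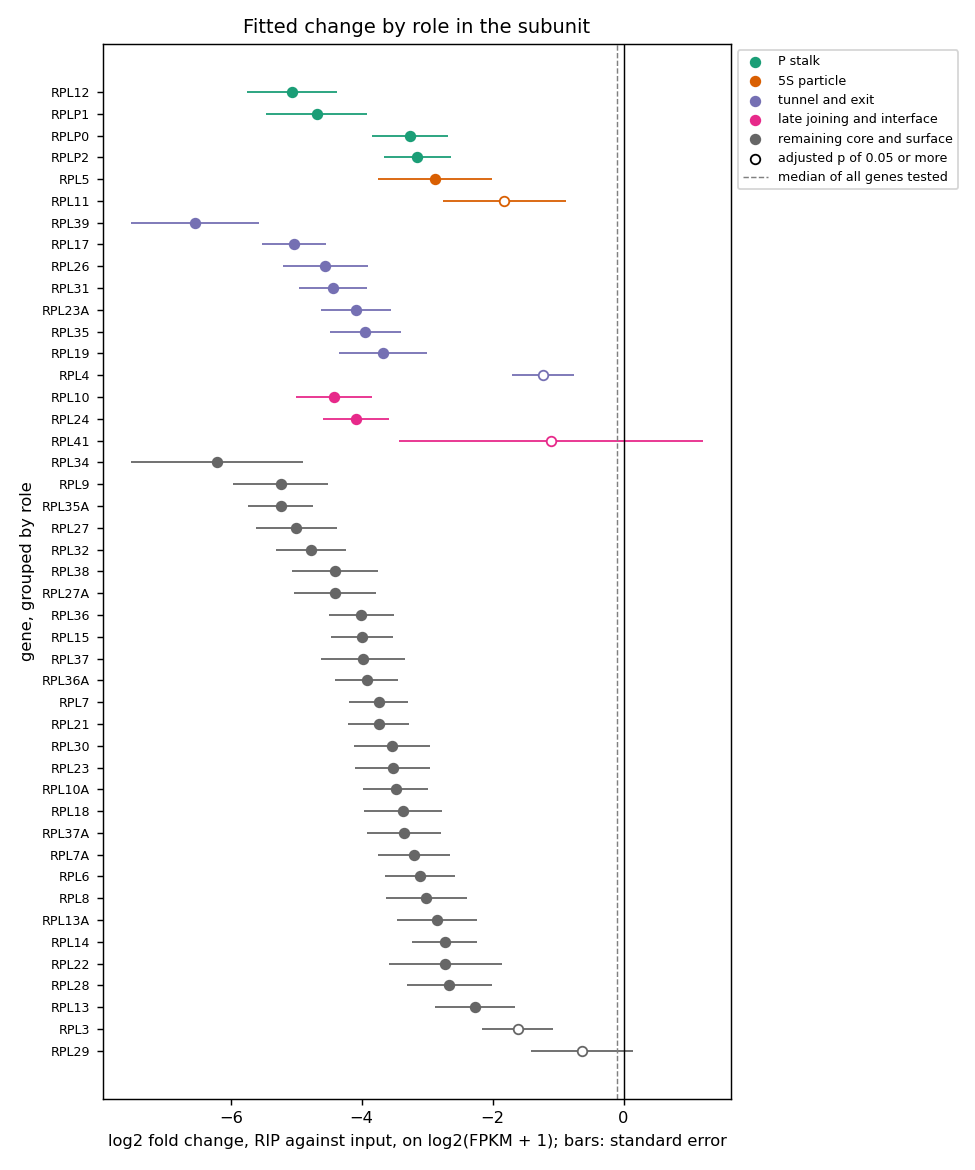
Fitted log2 fold change of RIP against input with its standard error for 45 of the genes, grouped by role, with open circles for the 5 genes at an adjusted p of 0.05 or more (RPL11, RPL4, RPL41, RPL3 and RPL29). Filled points run from -6.55 (RPL39) to -2.27 (RPL13), left of the dashed median of all genes tested at -0.10.

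The change was related to protein length within the members, but not evenly. Across the 46 members, the log2 fold change and the length of the encoded protein (GENCODE 29 principal transcripts) had Pearson's r = 0.42 and Spearman's rho = 0.39, or 0.55 and 0.49 without RPL41. The relation with the length of the whole transcript was weak in the members (r = 0.13, rho = 0.16), against 0.28 and 0.35 in 10799 other protein-coding genes, where protein length gave 0.27 and 0.35. The annotated principal transcript can be longer than the form in the cell, with 2769 bases given for RPL4. The only members of 400 or more residues, RPL3 (403) and RPL4 (427), were both among the 5 that were not called lower. All 12 members of at least 200 and under 400 residues were lower in RIP (median log2 fold change -3.15), as were 25 of 27 members of at least 100 and under 200 residues (median -4.01) and 4 of 5 shorter ones (median -3.98). The 3 lower length classes of the members thus showed no steady order. In the other protein-coding genes tested the share called lower fell with length: 56.5% of the 223 under 100 residues, 46.5% of the 1185 from 100 to under 200, 27.6% of the 3061 from 200 to under 400 and 9.34% of the 6330 longer ones were lower in RIP. Their medians were -2.10, -1.51, -0.45 and 0.58, each above that of the members in the same length class. The longest class holds 2 members, against other genes of up to 8797 residues. Input medians were 9.73 and 9.49 FPKM for all protein-coding genes tested, and 377 and 426 FPKM for the members. The fold change correlated with log2(FPKM + 1) of the input mean in the other genes (r = -0.47, rho = -0.45). In the members these were -0.18 and -0.16. The fold change itself holds the input values, and the part of input level was not tested. Whether library preparation treated short mRNAs alike in both groups was not tested.

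**Figure D4:**
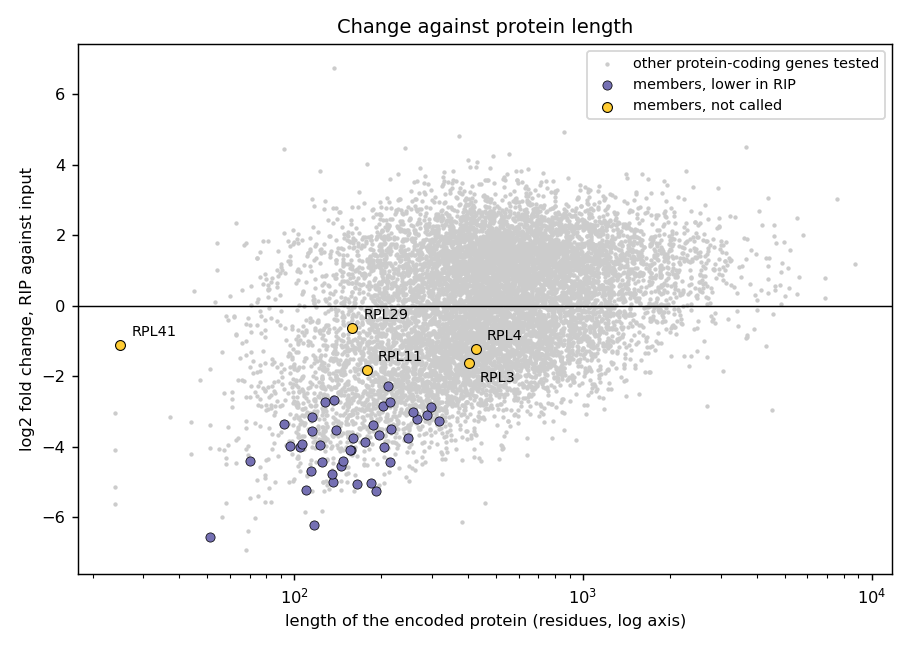
Log2 fold change of RIP against input (vertical axis) against the length of the encoded protein in residues (log axis) for the members (purple, or yellow where not called) and the other protein-coding genes tested (grey). Most members lie in the lower part of the grey points of like length, and the 5 yellow members, RPL41, RPL29, RPL11, RPL3 and RPL4, lie higher.

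Because YTHDF3 binds m6A, the letters GGACT, a form of the sequence in which m6A is most often found, were counted (GENCODE 29). The whole principal transcript held GGACT in 26 of the 46 members, or 56.5%, against 91.3% of all protein-coding genes tested. Because these transcripts can be long forms, the coding sequence was counted next. There GGACT was present in 15 of the 46 members, or 32.6%, against 74.3% of 10799 other protein-coding genes tested, which are longer. Per kilobase of coding sequence there were 0.75 in the members and 1.09 in the other genes. AGTCC, its reverse complement, occurred at 0.83 and 0.91 per kilobase, and the motif cannot overlap itself. Of the 15 members with GGACT 12 were lower in RIP (median log2 fold change -3.11, median length 188 residues), as were 29 of the 31 without it (median -3.85, 140 residues). RPL3, RPL4 and RPL9 have GGACT in their coding sequence at 2 places each, and RPL9 (-5.24) was among the lowest members while RPL3 and RPL4 were among the highest. RPL29 has it at none, although the annotated transcript of RPL29 holds it in both untranslated regions. The coding places of RPL3 and RPL4 and those of RPL29 are shown, 21 bases each with GGACT in capitals, as examples among the 5 members not called lower. Of the others, RPL11 has 1 coding place, and RPL41 has 2 places in its transcript, none of them coding. RPL4 has 4 places in all, and those in its 3′ untranslated region are not shown.
RPL3, base 618: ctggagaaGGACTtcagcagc
RPL3, base 756: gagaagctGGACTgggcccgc
RPL4, base 341: aggtggtgGGACTcaccgctc
RPL4, base 848: ctgcatttGGACTgaaagtgc
RPL29, base 80: tgcggagaGGACTggtgaccg
RPL29, base 648: ggacagaaGGACTggtgcgac
Bases are counted from 1 at the 5′ end of ENST00000216146, ENST00000307961 and ENST00000466397. No m6A was measured in these libraries, so a match describes the letters and no modified site.

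Ribosomal protein genes share sequence with many processed pseudogenes, and their values are uncertain where reads could be split. Of the 46 members, 42 had at least 1 pseudogene above 0, and in 7 the pseudogenes held 50% or more of the summed FPKM in both inputs. These 7 were RPL7, RPL21, RPL23A, RPL9, RPL10, RPL37 and RPL13A. For RPL7, pseudogenes held 78.9% and 76.1% of the summed FPKM in the inputs and 89.2% and 92.7% in RIP. With each member summed with its pseudogenes, 41 were again lower, every member kept its side of the threshold and the median log2 fold change was -3.58. The fold change of RPL39 then was -4.35, since its pseudogenes held 13.4% and 4.36% of the sum in the inputs, 69.5% in RIP 1 and all of it in RIP 2. The exons of 16 members also contain a small nucleolar RNA gene and those of 14 overlap a protein-coding gene on the opposite strand. Whether the counting used strand is not known.

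Other genes of translation and ribosome assembly were read against the same background of 24.3% lower and 15.4% higher. The small subunit had 30 of 31 genes lower and none higher (median log2 fold change -4.22), with RPS24 the exception (-2.06, adjusted p = 0.0542). FAU and RPS27A, which encode a ribosomal protein fused to a ubiquitin-like protein or to ubiquitin, were lower (-3.87 and -4.21). Among 18 other mRNAs with a TOP motif, 9 were lower and none higher (median -1.76). They encode elongation and initiation factors and also other proteins, such as NPM1, NAP1L1, HNRNPA1, TPT1 and VIM. Their median length was 422 residues, against 158 for the members. Of the subunits of elongation factor 1, EEF1B2 (-3.88), EEF1A1 (-2.40) and EEF1G (-2.25) were lower and EEF1D (-1.72, adjusted p = 0.0741) did not pass. Lower too were EIF3E (-3.89) and RACK1 (-2.76). EEF2, the translocation factor, stood at 175 and 210 FPKM in input and at 265 and 289 in RIP (log2 fold change 0.52, adjusted p = 0.447), and EIF3L had 0.08 (adjusted p = 0.907).

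Factors that build the large subunit had a median closer to that of all genes. They also encode longer proteins (median 503 residues, against 158 for the members). Their input medians were 12.8 and 24.2 FPKM, against 377 and 426 FPKM for the members. Of 41 genes for 60S assembly and export, 11 were lower and none higher (median -0.86, from -4.79 to 2.55). RSL24D1, a placeholder for RPL24 on the immature subunit, went from 54.2 and 69.2 FPKM in input to 1.70 and 0.86 in RIP (log2 fold change -4.79, adjusted p = 0.00873). EIF6, which keeps immature subunits from joining, went from 171 and 233 FPKM in input to 25.5 and 20.3 in RIP (-3.08, adjusted p = 0.00973), and SBDS, which helps release it, had -2.29 (adjusted p = 0.0161). PPAN had the highest value, 2.55 (adjusted p = 0.0796). Among 6 chaperones and nascent chain factors, NACA (-3.25) and BTF3 (-2.05), the subunits of the nascent polypeptide-associated complex, were lower, whereas GRWD1, a chaperone of RPL3, had 1.30 (adjusted p = 0.0613). The large subunit of the mitochondrial ribosome had 21 of 49 genes lower and 2 higher (MRPL57 and MRPL34, at 1.89 and 2.05), with a median of -1.47. Of 7 paralogs of the members, 5 were measured. RPL26L1 (-3.67) and RPL22L1 (-2.17) were lower, RPL39L (-3.37, adjusted p = 0.0539), RPL36AL (-0.74, adjusted p = 0.254) and RPL7L1 (1.23, adjusted p = 0.0853) did not pass, and RPL3L and RPL10L were at or near 0. RPL36AL, nearly identical in protein to RPL36A, stood at 147 and 169 FPKM in input and at 105 and 83.7 in RIP, whereas RPL36A stood at 257 and 191 FPKM in input and at 15.9 and 11.6 in RIP (log2 fold change -3.93, adjusted p = 0.00873). Pseudogenes of RPL36A held 11.2% and 14.0% of the summed FPKM in the inputs and 56.3% and 57.0% in RIP. Summed with them, RPL36A had a log2 fold change of -2.97. The difference between these lists was not tested, and neither was the part of protein length or input level in it.

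**Figure D5:**
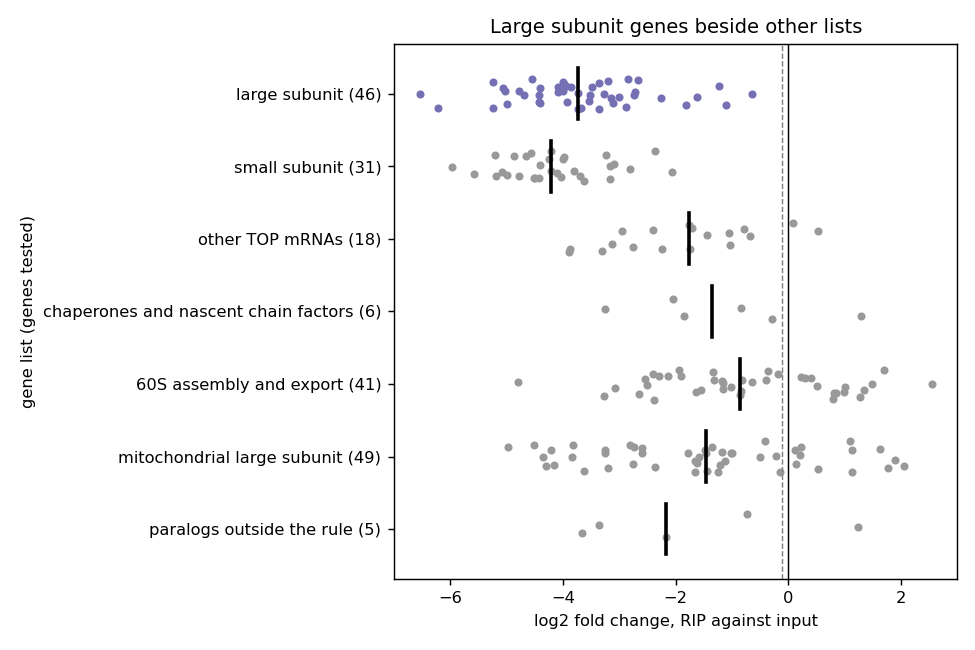
Log2 fold change of RIP against input for the genes tested in each list (number in brackets), with black bars for the medians and a dashed line for the median of all genes tested. The large and small subunit medians lie at -3.74 and -4.22, and those of the 60S assembly list and the other TOP mRNAs at -0.86 and -1.76.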

How the data were processed

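The authors deposited 1 value per gene and library in 1 table, and no header or label names its unit. It was taken as FPKM from the values: the deposited sums differ between groups and become close after multiplication by exon length (1621380, 1566173, 1688125 and 1733992 for input 1, input 2, RIP 1 and RIP 2). Per the submitters' processing notes, HISAT2 and GRCh38 (hg38) were used. No source here gives the counting program, the annotation or how strand was treated. Depth is unknown: with the most frequent low product of FPKM and exon kilobases (0.096 to 0.322) taken as 1 read, at most 32.5% of low values lay within 0.03 of a whole number, so no count test was run. Of 36217 rows, 14 repeats of an identifier were dropped, and 36125 of the rest are in GENCODE 29, which gave positions and lengths. The 12848 genes reaching 1 FPKM in at least 2 libraries were compared on log2(FPKM + 1) with limma 3.58.1 in R 4.3.3 (empirical Bayes with trend, no block, two-sided, Benjamini-Hochberg over all genes tested, threshold 0.05). This scale understates the change of low genes. The test was checked on simulated data. With 2 libraries a group it missed most changes of the smallest size tried. A far smaller share of genes was changed there than was called here, which makes the adjusted threshold stricter. Its misses therefore do not carry over to RPL3 and RPL4. The members, role groups, gene lists and naming rule were chosen with earlier results of these data known. The members named in full are the 6 lowest and 6 highest fold changes, those not called lower, those listed at 0, the 3 highest in input and the P stalk. Other members and single genes of other lists stand as examples chosen after their values were seen. The search for pyrimidine runs, the counts of GGACT (whole transcripts first, then coding sequences), the overlapping genes and the pseudogene shares were also chosen after the values were seen. Alternatives changed the pseudocount, filter, normalization, block, trend, treatment of chromosomes 1 and 10, pseudogenes and each library in turn. Single results, also left out of the figures that label genes, are not reported here.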

Additional observations from a re-analysis of the deposited data

How the results depend on the processing

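The count of 41 members lower in RIP lay between 36 and 43 under the 8 alternatives that keep all libraries, and no member was called higher under any of the 12. Under those 8, the share of all genes called lower lay between 11.5% (no filter, 36 members) and 28.7% (RIP 2 adjusted for position, 43 members). The fit outside chromosomes 1 and 10 holds only 43 members, of which 40 were lower. With 1 library left out the count ranged from 0 to 44, with 0 without input 1 and 0 without input 2, settings in which no gene of the 12848 passed. With 1 library left out, the median log2 fold change of -3.74 ranged from -4.02 (RIP 1) to -3.62 (RIP 2). It was -3.58 when summed with pseudogenes and -3.26 after quantile normalization, which moved the median of all genes from -0.10 to 0.13. Relative to the median of all genes the members stood at -3.64 before and -3.39 after it. The sign turned for RPL29 after quantile normalization (0.72) and without RIP 2 (0.29), and for RPL41 without RIP 2 (2.30) and without input 1 (1.14). Without RIP 1 these genes stood at -1.56 and -4.52. The cause was not tested. The libraries that share a title suffix were fitted as a replicate block: 41 members were lower and each of the 46 kept its side of the threshold. The deviations of same-suffix libraries from their group means correlated with r = 0.21 across genes, and with a pair of suffixes of unstated meaning they are not taken as paired. Depth is unknown, so a gene listed at 0 in RIP 2 gives no limit on its level.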
